A study of Homo sapiens with 6 samples.

Results

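miR-1246 and miR-1290 are short human miRNAs with overlapping sequences, and the study's authors also predicted further miRNAs from the reads that they matched to ptr-miR-1246, the chimpanzee miR-1246. The rows were taken by name: hsa-miR-1246 and hsa-miR-1290 among the known miRNAs, and each predicted entry whose name contains ptr-miR-1246. This gave 6 of the 276 listed rows. The predicted entries X_25791-3p and Y_26495-3p held the same counts in all 6 libraries and were counted once, which left 5 distinct entries of 250 distinct ones. The others were 2_2660-5p and 3_4536-5p. Small RNA was sequenced from exosomes, small vesicles that cells release, purified by ultracentrifugation from the medium of HaCaT, an established human keratinocyte line. The first group is exosomes of HaCaT cells given 0.4 mM hydrogen peroxide (H2O2), with 3 libraries, and the second is exosomes of untreated HaCaT cells, with 3 libraries. H2O2 replicates 1, 2 and 3 are labelled with exposures of 24, 25 and 26 h, whereas a single time of 24 h stands in the series design, so time and replicate number cannot be told apart. The labels call the replicates biological, and all 6 libraries come from 1 cell line, so they stand for cultures of that line and not for donors.

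A miRNA is cut from a hairpin and guides a silencing complex to messenger RNAs that pair with its seed, the bases near its 5′ end. miR-1246 has been described in human cells as induced by p53, with the kinase gene DYRK1A as a target, and it is often measured in vesicles and serum. It has also been described as a fragment of U2, the small nuclear RNA of the spliceosome, the machine that removes introns. In small RNA data an entry of this kind can therefore collect reads from another abundant RNA.

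The sequences are shown first because the readings below depend on how much the entries share. Both mature sequences come from RefSeq on GRCh38.p14, and both lie on the minus strand. Capitals mark the seed, bases 2 to 8.
hsa-miR-1246: aAUGGAUUuuuggagcagg
hsa-miR-1290: uGGAUUUUuggaucaggga
Each is 19 bases long. Mature miR-1246 lies at chr2:176601024-176601042, where GENCODE release 29 places no gene other than MIR1246. Mature miR-1290 lies at chr1:18897078-18897096, in an intron of the proline-pathway enzyme gene ALDH4A1 and in an intron of the overlapping gene AL080251.1. The seeds differ, AUGGAUU for miR-1246 and GGAUUUU for miR-1290, and the second stands at bases 4 to 10 of miR-1246. Of 2370 human mature miRNAs in the RefSeq table, 0 others had either seed. The longest run that both hold is 12 bases, in capitals here.
hsa-miR-1246: aaUGGAUUUUUGGAgcagg
hsa-miR-1290: UGGAUUUUUGGAucaggga
The run occupies bases 3 to 14 of miR-1246 and bases 1 to 12 of miR-1290. Set against each other with that shift of 2 bases, the sequences were identical at 16 of 17 positions, the exception being U13G, with positions counted from the 5′ end of miR-1290 and the miR-1290 base first. No other of the 2370 mature sequences held the 12-base run.

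The whole of mature miR-1246 is also present in U2. RNU2-1, a U2 gene of 191 bases at chr17:43233787-43233977 on the minus strand, holds all 19 bases at its positions 94 to 112. Bases 84 to 122 of RNU2-1 are shown with that stretch in capitals, and the MIR1246 hairpin, at chr2:176600980-176601052, with its mature sequence in capitals.
RNU2-1: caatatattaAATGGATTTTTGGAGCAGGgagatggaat
MIR1246 hairpin: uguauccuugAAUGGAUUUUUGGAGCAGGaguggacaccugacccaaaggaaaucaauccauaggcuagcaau
The longest run that the hairpin and RNU2-1 share is exactly these 19 bases, hairpin bases 11 to 29. A read that lies wholly inside the stretch cannot be assigned to the hairpin or to RNU2-1 by its sequence. With 1 more base on either side it can, if no mismatch is allowed. Only the hairpin and RNU2-1 were compared in this way, not the other U2-like genes. miR-1290 came close but did not match, with 18 of 19 bases identical to RNU2-1 bases 96 to 114 and the substitution U13G, miR-1290 base first. Among 1900 small nuclear RNA transcripts of GENCODE release 29, those of 19 genes held miR-1246 without a mismatch, 13 of them on chromosome 17, and 12 further genes held it with 1 mismatch. For miR-1290 the counts were 0 genes without a mismatch and 23 with 1. The sources used here do not say how many mismatches the authors allowed.

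The predicted entries are named by a chromosome and a number, with no position in the tables used here. U2-like genes within 1 base of miR-1246 were annotated on each of the 4 chromosomes those names carry, namely 2 on X, 1 on Y, 1 on chromosome 2 and 2 on chromosome 3. They were also annotated on chromosomes 5, 6, 7, 9, 10, 13, 14, 15, 17 and 20. Their presence on the named chromosomes therefore says little about the predicted entries. MIR1246 itself lies on chromosome 2, which the name 2_2660-5p carries. The sites below are from GENCODE release 29 transcripts and are shown because they differ from miR-1246 by single bases, in capitals.
RNU2-26P (X): Catggatttttggagcagg
RNU2-57P (Y): Catggatttttggagcagg
RNU2-68P (X): aaGggatttttggagcagg
RNU2-39P (2): aatggatttttgCagcagg
RNU2-64P (3): aatggGtttttggagcagg
Counted from the 5′ end of miR-1246 and with its base first, the differences are A1C in RNU2-26P and RNU2-57P, U3G in RNU2-68P, G13C in RNU2-39P and A6G in RNU2-64P. The second gene on chromosome 3, RNU2-37P, matched miR-1246 at all 19 bases. RNU2-26P on X and RNU2-57P on Y were identical at 190 of 191 bases. Whether these genes are the places behind the predicted entries cannot be read from the tables used here.

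The library totals behind the values were 2449856 to 5405525 reads. Levels are the deposited CPM values, the counts per 1000000 reads of those totals. The authors' tables hold rows chosen for a difference between the groups, with p-values of at most 0.049 and an absolute log2 fold change of at least 1.03, so the difference between H2O2 and untreated exosomes chose these entries. It is described below and not tested. In the authors' deposited table the log2 fold change was 4.46 for miR-1246, 3.05 for miR-1290, 4.22 for X_25791-3p, 4.28 for 2_2660-5p and 4.32 for 3_4536-5p, and the p-value was 0.000141 for miR-1246 and 4.83e-09 for miR-1290. Markers of other cells were uneven between libraries. Of 10 such names 8 were in the tables, and their summed level was 4010, 5746 and 3906 CPM in H2O2 replicates 1, 2 and 3 and 2310, 2229 and 1815 CPM in untreated replicates 1, 2 and 3, nearly all of it the neural miRNA miR-9-5p. The muscle miRNA miR-1-3p had 1.95, 197 and 3.63 CPM in H2O2 replicates 1, 2 and 3 and 5.37, 12.9 and 2.59 CPM in untreated replicates 1, 2 and 3. The muscle miRNA miR-133a-3p and the neural miRNA miR-124-3p had 34 and 14 reads in H2O2 replicate 2, and 0 or 1 read in each other library. The other 4 names, miR-122-5p, miR-486-5p, miR-142-5p and miR-451a, were listed as lower, and each was highest in untreated replicate 2. miR-122-5p, of liver, had 4.55, 9.796 and 7.02 CPM in H2O2 replicates 1, 2 and 3 and 19.6, 118 and 31.8 CPM in untreated replicates 1, 2 and 3. H2O2 replicate 2 is also the H2O2 library with the lowest miR-1246, and the part of these markers in that value was not tested. In bulk samples more vesicles carrying a miRNA and more copies per vesicle cannot be told apart.

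miR-1246 was the most abundant of the 5 entries in each library, and its levels were widely scattered. It stood at 33240, 2608 and 274467 CPM in H2O2 replicates 1, 2 and 3, against 1295, 3676 and 11471 CPM in untreated replicates 1, 2 and 3. H2O2 replicates 1 and 3 lay above all untreated libraries, while H2O2 replicate 2 lay below untreated replicates 2 and 3, so the groups overlapped. The mean was 103438 ± 148905 CPM in H2O2 exosomes and 5481 ± 5322 CPM in untreated exosomes (SD, n = 3 each), so in the H2O2 group the SD exceeded the mean. The means of log2(CPM + 1) were 14.81 ± 3.36 and 11.89 ± 1.57 (SD, n = 3 each) in H2O2 and untreated exosomes, a difference of 2.92, or 7.58-fold. The ratio of the arithmetic means was larger, 18.9-fold (4.24 on the log2 scale), because H2O2 replicate 3 carries most of the sum. Without H2O2 replicate 3 the log2 difference was 1.29, and without H2O2 replicate 2 it was 4.65. Without untreated replicate 1 it was 2.15, and without untreated replicate 3 it was 3.72.

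**Figure D1:**
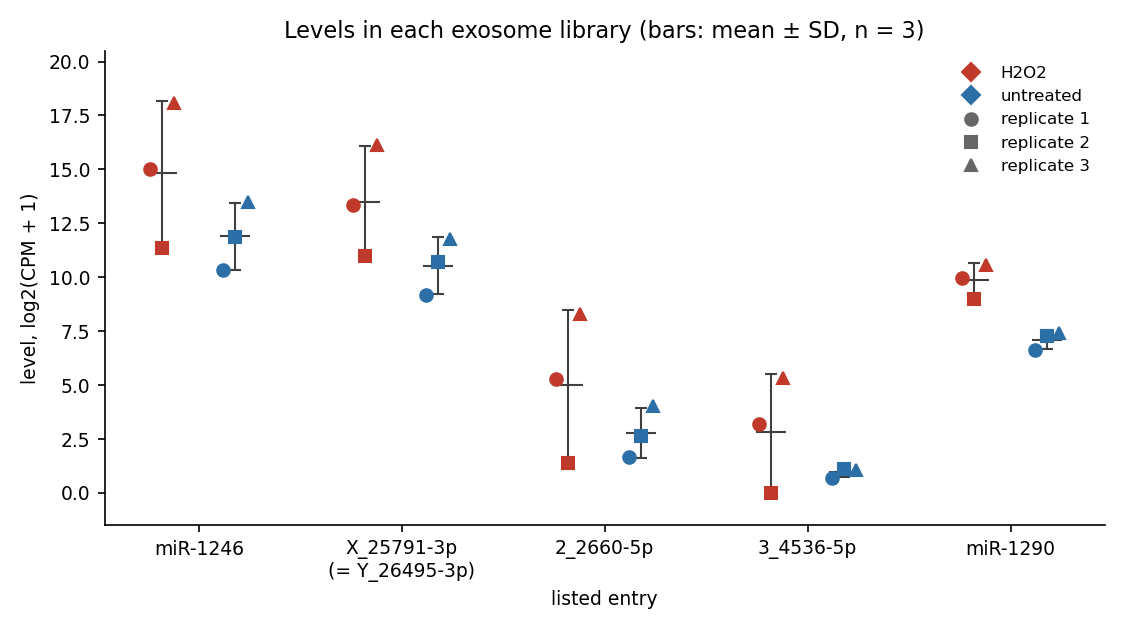
Level of each distinct entry in each library as log2(CPM + 1), with H2O2 exosomes in red, untreated exosomes in blue, 1 symbol per library and bars for the mean ± SD of 3 libraries. In H2O2 exosomes every entry shown, miR-1290 included, has replicate 3 at the top and replicate 2 at the bottom. miR-1290 is the entry whose groups do not overlap.

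miR-1290 was less abundant and far less scattered. Its levels were 1004, 514 and 1523 CPM in H2O2 replicates 1, 2 and 3, and 97.7, 154 and 171 CPM in untreated replicates 1, 2 and 3. All H2O2 libraries lay above all untreated ones, and the lowest H2O2 value was again replicate 2. The mean was 1014 ± 505 CPM in H2O2 exosomes and 141.0 ± 38.6 CPM in untreated exosomes (SD, n = 3 each). On the log2(CPM + 1) scale these were 9.85 ± 0.79 and 7.11 ± 0.43 (SD, n = 3 each), a difference of 2.74, or 6.69-fold. The ratio of the arithmetic means was 7.19-fold. Leaving out 1 library at a time gave log2 differences of 2.38 to 3.16, so no single library set the size of the difference for miR-1290 as H2O2 replicates 2 and 3 did for miR-1246.

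The abundant predicted entry, X_25791-3p with its twin Y_26495-3p, had levels of the order of miR-1246 itself. It stood at 10556, 2035 and 71944 CPM in H2O2 replicates 1, 2 and 3, against 572, 1669 and 3475 CPM in untreated replicates 1, 2 and 3. The order of the libraries was that of miR-1246 in each group. miR-1290 had the same order in each group, so the order does not set X_25791-3p apart from miR-1290. The groups of X_25791-3p overlapped because H2O2 replicate 2 lay below untreated replicate 3. The difference of the means of log2(CPM + 1) was 2.95, with means of 13.50 ± 2.57 in H2O2 exosomes and 10.54 ± 1.31 in untreated exosomes (SD, n = 3 each). For X_25791-3p it was 1.64 without H2O2 replicate 3, 4.21 without H2O2 replicate 2, 2.26 without untreated replicate 1 and 3.56 without untreated replicate 3. The ratio of the arithmetic means was 14.8-fold.

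The other 2 predicted entries were rare. 2_2660-5p had 117, 4 and 1305 reads in H2O2 replicates 1, 2 and 3 and 7, 14 and 82 reads in untreated replicates 1, 2 and 3. Its levels were 38.0, 1.63 and 316 CPM in the H2O2 libraries and 2.21, 5.29 and 15.2 CPM in the untreated ones, so that H2O2 replicate 2 lay below every untreated library. The difference of the means of log2(CPM + 1) for 2_2660-5p was 2.21, with SDs of 3.46 in H2O2 and 1.17 in untreated exosomes (n = 3 each). It was 0.56 without H2O2 replicate 3, 4.01 without H2O2 replicate 2 and 2.83 without untreated replicate 3.

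3_4536-5p had 25, 0 and 160 reads in H2O2 replicates 1, 2 and 3 and 2, 3 and 6 reads in untreated replicates 1, 2 and 3. A count of 0 in H2O2 replicate 2 allows a level of up to 1.22 CPM, taking 3 counts as the limit, and this limit covers counting error only. In untreated replicates 1 and 2 the entry was at or under 3 counts too. No size is therefore read from its fold, the authors' log2 fold change of 4.32 included. Its levels in H2O2 replicates 1 and 3 were 8.12 and 38.7 CPM, above the 0.632, 1.13 and 1.11 CPM of the untreated libraries.

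miR-1246 and the predicted entries took very different shares of the libraries. miR-1246 alone was 3.32% of the total in H2O2 replicate 1, 0.261% in H2O2 replicate 2 and 27.4% in H2O2 replicate 3, against 0.1295%, 0.368% and 1.15% in untreated replicates 1, 2 and 3. With the 3 distinct predicted entries added, the shares were 4.38%, 0.464% and 34.7% in H2O2 replicates 1, 2 and 3 and 0.187%, 0.535% and 1.496% in untreated replicates 1, 2 and 3. The exact 95% Clopper-Pearson interval of the highest, in H2O2 replicate 3, was 34.6% to 34.7%, so counting error is small beside the spread between libraries. The sum takes the distinct rows as separate reads, and the sources used here do not give the authors' counting rule. X_25791-3p and Y_26495-3p held the same counts in all 6 libraries, and only 250 of the 276 listed rows were distinct. A read can therefore have been counted in more than 1 row, and how many reads miR-1246 and the predicted entries have in common is not known. miR-1290 was 0.1004%, 0.0514% and 0.152% of the total in the H2O2 libraries and 0.00977%, 0.0154% and 0.0171% in the untreated ones.

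The high share in H2O2 replicate 3 did not go with a lower share of the other listed miRNAs than in the other H2O2 libraries. The other distinct listed entries together took 10.3%, 10.6% and 11.1% of the total in H2O2 replicates 1, 2 and 3, against 17.1%, 17.2% and 21.6% in untreated replicates 1, 2 and 3. These rows were chosen by the authors for their difference between the groups. Choosing by p-value also favours rows with little scatter within a group, so nothing is read from the closeness of the 3 H2O2 values. By level among the 161 listed known miRNAs, miR-1246 ranked 1, 10 and 1 in H2O2 replicates 1, 2 and 3 and 12, 8 and 6 in untreated replicates 1, 2 and 3. The entry at the top was let-7f-5p in H2O2 replicate 2 and miR-148a-3p in each untreated library. miR-1290 ranked 16, 20 and 11 in H2O2 and 30, 26 and 30 in untreated libraries. Its ranks did not overlap between the groups, while those of miR-1246 did. The 161 rows were selected for this same difference, 79 as higher and 82 as lower, so a rise in rank repeats the selection. Nothing is read from it, and the share of other rows with such ranks was not counted.

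**Figure D2:**
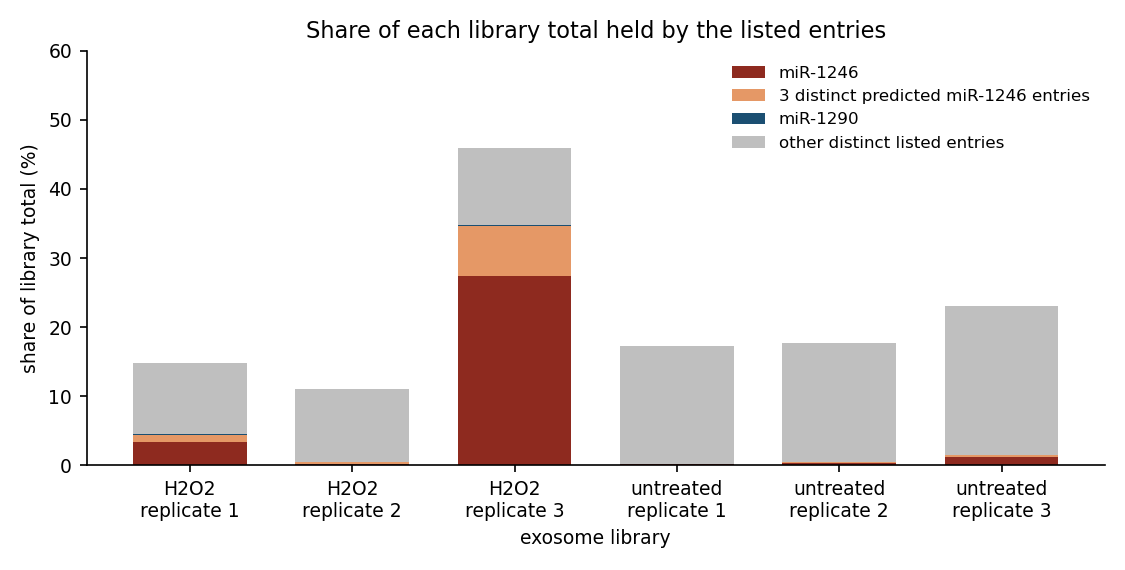
Percent of each library total held by miR-1246, the 3 distinct predicted miR-1246 entries, miR-1290 and the other distinct listed entries, stacked, for the 3 H2O2 and the 3 untreated libraries. In H2O2 replicate 3 miR-1246 and the predicted entries reach 34.7% of the total. The other listed entries are at 11.1% there, beside 10.3% and 10.6% in the other H2O2 libraries, a closeness that the choice of rows favours.

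Ratios of reads within a library do not depend on the library total. There were 33.1, 5.07 and 180.2 miR-1246 reads per miR-1290 read in H2O2 replicates 1, 2 and 3, against 13.3, 23.9 and 66.9 in untreated replicates 1, 2 and 3. The ratio thus spanned 35.5-fold within the H2O2 group, from its lowest to its highest library, and 5.04-fold within the untreated group. The groups overlapped, with both the lowest and the highest ratio in H2O2 exosomes. The mean log2 ratio was 4.96 ± 2.58 in H2O2 exosomes and 4.79 ± 1.18 in untreated exosomes (SD, n = 3 each), a difference of 0.17 that is small beside either SD. Its direction turned without H2O2 replicate 3 (-1.09) or without untreated replicate 1 (-0.36). The 2 miRNAs, which share 16 of 17 aligned bases, were therefore not read in a fixed proportion.

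X_25791-3p kept closer to miR-1246, though whether its reads are partly those of miR-1246 was not tested. It had 31.8, 78.0 and 26.2 reads per 100 miR-1246 reads in H2O2 replicates 1, 2 and 3, against 44.1, 45.4 and 30.3 in untreated replicates 1, 2 and 3. H2O2 replicate 2, the H2O2 library with the least miR-1246, had the highest of these values, and H2O2 replicate 3, with the most, had the lowest. The ratio spanned 2.98-fold over all 6 libraries, where that of miR-1246 to miR-1290 spanned 35.5-fold. 2_2660-5p had 0.114, 0.0626 and 0.115 reads per 100 miR-1246 reads in H2O2 replicates 1, 2 and 3 and 0.171, 0.144 and 0.132 in untreated replicates 1, 2 and 3, a span of 2.73-fold. The value of H2O2 replicate 2 rests on 4 reads of 2_2660-5p.

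**Figure D3:**
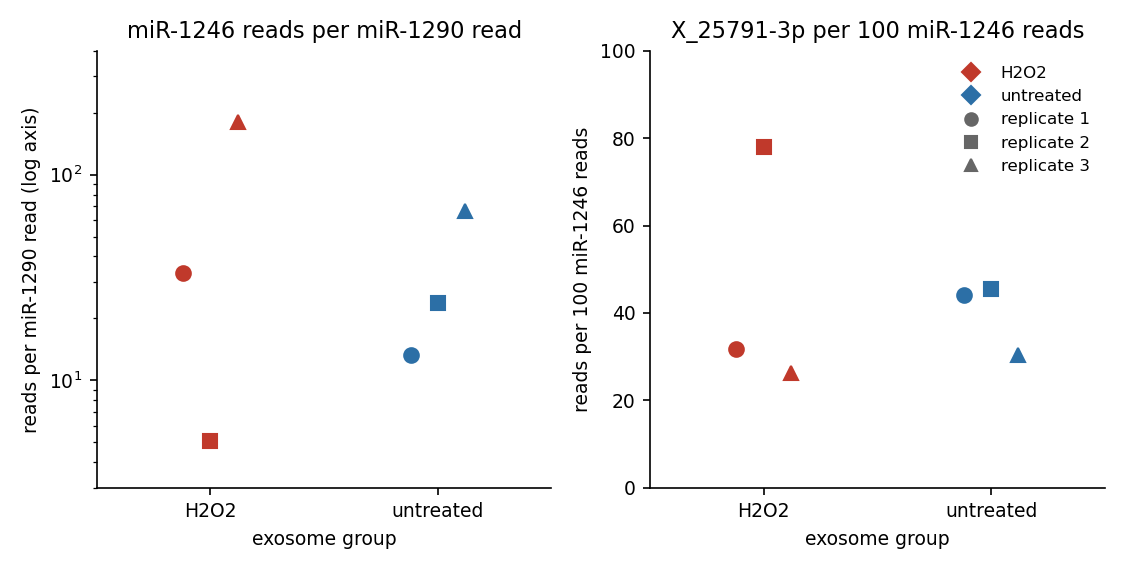
Left, miR-1246 reads per miR-1290 read in each library on a log axis; right, X_25791-3p reads per 100 miR-1246 reads on a linear axis, with H2O2 exosomes in red and untreated exosomes in blue and 1 symbol per library. On the left H2O2 replicate 2 is lowest at 5.07 and H2O2 replicate 3 highest at 180.2, and on the right the same libraries lie at 78.0 and 26.2.

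The spread within a group does not use the difference between the groups, but the listed rows were kept by their p-values. That choice favours rows with little scatter within a group, so the median and ranks below hold among the listed rows only. It was taken as the range of log2(CPM + 1) over the 3 libraries, for the 99 distinct entries with a mean of at least 10 CPM, a measure chosen after the values had been seen. In H2O2 exosomes the range was 6.72 for miR-1246 and 5.14 for X_25791-3p, which ranked 2 and 4, against a median of 0.89 over the 99 entries. In untreated exosomes miR-1246 had a range of 3.15 and X_25791-3p of 2.60, ranking 3 and 5. The ranges of 2_2660-5p were 6.91 in H2O2 and 2.33 in untreated exosomes, but it passed the minimum of 10 CPM only through the H2O2 group, with means of 118 CPM in H2O2 and 7.56 CPM in untreated exosomes, so no rank is given for it. Other entries of the 99 passed in the same way, such as miR-1-3p, with means of 67.4 CPM in H2O2 and 6.94 CPM in untreated exosomes. miR-1290 had ranges of 1.57 in H2O2 and 0.81 in untreated exosomes and ranked 25 and 62. The levels of miR-1246 and X_25791-3p thus varied widely between libraries of 1 group, and more between the H2O2 libraries than between the untreated ones.

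**Figure D4:**
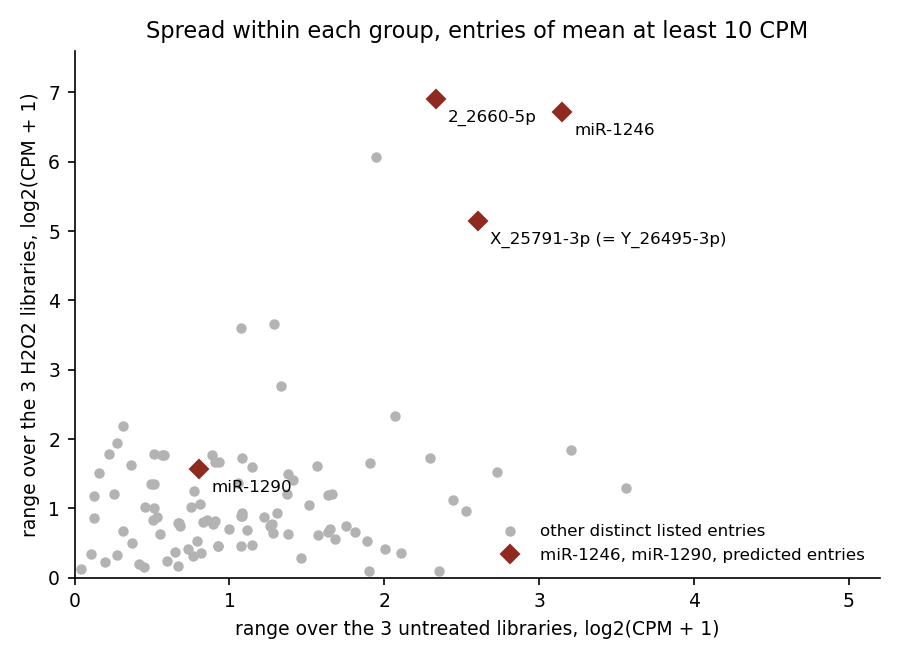
Range of log2(CPM + 1) over the 3 H2O2 libraries (vertical) against the range over the 3 untreated libraries (horizontal), 1 point for each of the 99 distinct listed entries with a mean of at least 10 CPM. At 6.72 and 5.14, miR-1246 and X_25791-3p lie far above the H2O2 median of 0.89, which is over rows selected by the authors, while miR-1290 lies at 1.57.

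Groups that do not overlap were counted with every H2O2 library above every untreated one. Of the 5 distinct entries this held for 1, miR-1290. Among the 121 distinct rows that the authors listed as higher it held for 75.2%, and among all 276 listed rows for 37.3%, or for 82.2% in either direction. These percentages come from rows selected on the same libraries, and nothing is read from them. Without H2O2 replicate 2 the count was 5 of 5, beside 81% of the 121 rows, and without untreated replicate 3 it was 2 of 5, miR-1290 and X_25791-3p, beside 84.3%. It was 1 of 5 without H2O2 replicate 1, beside 79.3%, without H2O2 replicate 3, beside 87.6%, without untreated replicate 1, beside 77.7%, and without untreated replicate 2, beside 79.3%.

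The listed entries with the most similar pattern were found by the root mean square difference of mean-centred log2(CPM + 1) over the 6 libraries, among 95 other distinct entries with a mean of at least 10 CPM. The difference from miR-1246 was 0.52 for X_25791-3p and 0.43 for 2_2660-5p. miR-1290 followed at 1.64, and the nearest entry outside the group was 6_8081-3p, a predicted entry matched to mmu-miR-320-3p, at 1.76. After it came miR-320e at 2.01, miR-31-3p at 2.01, miR-500a-5p at 2.08 and miR-5701 at 2.09. miR-31-3p is the minor arm of the miR-31 hairpin, which keratinocytes express. By this measure X_25791-3p lay nearer to miR-1246 than miR-1290 and the 95 other entries did. The measure includes the difference between the groups that chose the rows, and entries listed as lower are among the 95. Reads of X_25791-3p can partly be those of miR-1246, which was not tested. 2_2660-5p passed the minimum only through the H2O2 group, so nothing is read from its place. The same holds for 6_8081-3p and miR-5701, with untreated means of 9.94 and 0.73 CPM.

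By this measure miR-1290 had closer neighbours, and miR-1246 was not among them. 6_8081-3p was nearest at 0.49, with 70.8, 20.001 and 71.2 CPM in H2O2 replicates 1, 2 and 3 and 10.7, 9.08 and 9.99 CPM in untreated replicates 1, 2 and 3. Like miR-1290, it was lowest in replicate 2 of the H2O2 group and its groups did not overlap. miR-5701 followed at 0.64, the predicted entry 14_17992-5p at 0.68, miR-582-5p at 0.76 and miR-320e at 0.78. Of these neighbours, only miR-320e had an untreated mean above 10 CPM, at 23.3 CPM. The untreated means were 9.94 CPM for 6_8081-3p, 0.73 for miR-5701, 4.17 for 14_17992-5p and 4.75 for miR-582-5p. Those entries passed the minimum only through the H2O2 group, so nothing is read from their places. Set among these 95 entries, X_25791-3p would rank 40 and miR-1246 would rank 53 in likeness to miR-1290. The measure is not scaled, so the wide scatter of miR-1246 adds to its difference from miR-1290. Their SDs of log2(CPM + 1) in H2O2 exosomes were 3.36 and 0.79. The order of the libraries was the same for both in each group. Some of the 95 passed the minimum only through the H2O2 group, so nothing is read from these ranks. All listed rows were selected for a difference between the groups, so a shared step between the groups is common to these neighbours by selection.

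A list of 43 names held miRNA entries described as resembling fragments of abundant RNA classes, miR-1246 and miR-1290 among them. Besides these 2, 11 were in the tables, 9 listed as higher and 2 as lower, with a median difference of log2(CPM + 1) of 1.94. Over the 161 listed known miRNAs 79 were listed as higher and 82 as lower, with a median of -0.78. The value of 1.94 is that of miR-4508, with 2, 1 and 2 reads in untreated replicates 1, 2 and 3. miR-4488 and miR-4492 also had 2 reads or fewer in each untreated library. The list was chosen with earlier results of these data known, so nothing is read from these counts. miR-7704 had 118, 130.2 and 55.9 CPM in H2O2 replicates 1, 2 and 3 and 31.0, 52.6 and 15.9 CPM in untreated replicates 1, 2 and 3. miR-1291, whose hairpin overlaps a snoRNA gene, had 77.6, 44.9 and 53.2 CPM in the H2O2 libraries and 20.2, 13.2 and 7.77 CPM in the untreated ones. miR-10400-5p had 21.4, 47.3 and 11.6 CPM in the H2O2 libraries and 1.58, 1.13 and 1.48 CPM in the untreated ones. In none of these 3 was H2O2 replicate 3 the highest, in contrast to miR-1246. The members listed as lower were miR-1268a and miR-1268b, both at 2 reads or fewer in each H2O2 library.

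Of 14 p53-responsive names, 5 were in the tables, with miR-1246, miR-192-3p and miR-103a-2-5p listed as higher and miR-16-2-3p and miR-34c-5p as lower. That is 3 of 5 beside the 79 of 161 over all listed known miRNAs. miR-1246 is among the 3 and was taken here by name, so nothing is read from this count. miR-192-3p had 3, 4 and 1 reads in H2O2 replicates 1, 2 and 3 and 0, 0 and 1 reads in untreated replicates 1, 2 and 3, near the limit of detection. miR-34c-5p, of a family that p53 switches on directly, averaged 18.2 CPM in H2O2 and 63.0 CPM in untreated exosomes. Of 13 names often measured in vesicles or serum, 6 were in the tables, and the 2 listed as higher were miR-1246 and miR-1290. Both were taken here by name, so nothing is read from this count either, 2 of 6 beside the same 79 of 161. The 4 listed as lower were the liver miRNA miR-122-5p and the blood cell miRNAs miR-486-5p, miR-142-5p and miR-451a, with differences of log2(CPM + 1) of -2.46, -1.83, -1.08 and -1.58. Of 10 keratinocyte names, 5 were in the tables, with miR-31-3p listed as higher and 4 as lower. The summed level of those 5 was 5147, 5660 and 5878 CPM in H2O2 replicates 1, 2 and 3 and 10395, 11978 and 13975 CPM in untreated replicates 1, 2 and 3, nearly all of it miR-183-5p with 4503, 4980 and 5169 CPM in the H2O2 libraries and 10100, 11569 and 13481 CPM in the untreated ones. miR-205-3p, an arm of an epithelial hairpin, had 3.25, 20.4 and 3.87 CPM in H2O2 replicates 1, 2 and 3 and 26.9, 69.96 and 15.9 CPM in untreated replicates 1, 2 and 3, with replicate 2 highest in each group.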

How the data were processed

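Small RNA libraries of exosomes from H2O2-treated and untreated HaCaT cells were compared, 3 of each, grouped by the labels. bcl2fastq, FastQC and cutadapt are named in the submitters' processing notes, as is Bowtie 1.1.1. The sources used here do not name the genome build, miRNA catalogue, mismatch setting or counting rule. For each library the authors deposited read counts without normalization, per the file headers. Their deposited normalized values are CPM, made by the authors by dividing each count by 1 total per library, as the values show, and the totals were recovered by division. Which reads those totals hold is not known here. A log2 fold change, its linear fold (a ratio) and an unadjusted p-value, H2O2 over untreated, were also deposited by the authors.

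Rows of the 4 tables were joined, and rows with identical counts were counted once. Levels were summarised in Python 3.11.15 (pandas 2.3.3) as CPM and as log2(CPM + 1), and differences are H2O2 minus untreated, so a fold on this scale understates that of rare entries. No test was run, since the entries and the tables were chosen for the difference described. The members and lists were chosen with earlier results of these data known. Named entries are the members, for miR-1246 and miR-1290 each the 5 nearest entries with a mean of at least 10 CPM, and members of the lists, which were matched by hairpin name with either strand counted. Shares have exact 95% Clopper-Pearson intervals, computed with scipy 1.17.1, and cover counting error only, as reads without molecular identifiers are not independent molecules. Sequences were compared with RefSeq mature miRNAs on GRCh38.p14 and GENCODE release 29 transcripts, without a genome search. The code for differences and likeness was tested on simulated data. Alternatives were other library totals, median-of-ratios scaling, TMM factors from edgeR 4.0.16, pseudocounts of 0.1 and 5 CPM, arithmetic means, every row counted, and each library left out. Leaving out libraries for the count of members whose groups do not overlap, and pairing by replicate number, were chosen after seeing the data. The labels number the replicates 1 to 3 in each group. They do not state that equal numbers form a pair. Over 99 distinct entries with a mean of at least 10 CPM, deviations from the group means correlated at 0.30, 0.12 and 0.34 between libraries numbered 1, 2 and 3. H2O2 replicate 2 correlated at 0.14 with untreated replicate 1, above its value with untreated replicate 2. All other values between libraries of unlike number were negative, from -0.34 to -0.02. As the labels state no pairs, pairing by number was kept as an alternative, and the main values are unpaired.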

Additional observations from a re-analysis of the deposited data

How the results depend on the processing

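For miR-1246, miR-1290 and the summed predicted entries the difference of log2(CPM + 1) stayed positive in every alternative run, and moved by less than 1 SD between replicates. That SD was 2.63 for miR-1246, 2.04 for the predicted entries and 0.64 for miR-1290, so for the first of these the criterion is wide. Over other totals, scalings and pseudocounts the difference was 2.67 to 3.14 for miR-1246, 2.49 to 2.96 for miR-1290 and 2.697 to 3.17 for the predicted entries. The lower ends came from median-of-ratios scaling, which moved all listed rows by a median of -0.17, and the upper ends from totals without the reads of miR-1246 and the predicted entries, which moved them by 0.17. With 1 library left out the difference was 1.29 to 4.65 for miR-1246, 2.38 to 3.16 for miR-1290, and 1.63 to 4.21 for the predicted entries. For 3_4536-5p, at 3 reads or fewer in 3 libraries, the difference was 1.87. It was 1.62 with a pseudocount of 0.1 CPM, 1.25 with 5 CPM and 4.03 from arithmetic means. With 1 library left out it was 0.64 to 3.29, so no size is read from these values. The log2 ratio of miR-1246 to miR-1290 ranged from -1.09 without H2O2 replicate 3 to 1.48 without H2O2 replicate 2, was -0.36 without untreated replicate 1, and was 0.21 with the predicted entries added. The count of members whose groups do not overlap was 1 to 5 with 1 library left out, and the count over all 276 listed rows, 227, was 233 to 251. That count was 158 over rows that reached 5 counts in 3 or more libraries, 202 with 1 row per set of identical counts and 205 under median-of-ratios scaling. Counting every row gave the members a share of 42.02% in H2O2 replicate 3, where it was 34.8% with identical rows counted once. With a replicate block, added after seeing the data, the means are the same by construction, 2.92 for miR-1246, 2.74 for miR-1290, 2.95 for the predicted entries and 0.17 for the ratio. The same-number differences for replicates 1, 2 and 3 were 4.68, -0.50 and 4.58 for miR-1246, 3.35, 1.73 and 3.14 for miR-1290, 4.204, 0.28 and 4.37 for the predicted entries, and 1.32, -2.23 and 1.43 for the ratio. The tables were selected by the authors, so scaling factors from their rows carry that selection.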
